A study of Mus musculus with 2 samples.

Results

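The nuclear factor I (NFI) family of the mouse consists of 4 genes, Nfia, Nfib, Nfic and Nfix, which were taken by symbol from the 21911 protein-coding genes of GENCODE release M21 on the mm10 assembly (GRCm38). Every DNase I peak and hotspot that overlapped a gene body or the 100 kb on either side of it was taken with the gene, and this stretch is called its window. The 4 windows held 386 of the 221538 accessible regions that remained when the peaks of both libraries were merged. They held 247 peaks of replicate 1 and 377 peaks of replicate 2. DNase I cuts DNA where chromatin is open, so each peak marks a short accessible site, and a hotspot is a broader stretch of raised cutting. The cells were adipocytes differentiated in vitro from 3T3-L1, a clonal mouse preadipocyte line, and were taken at day 8. The 2 libraries were biological replicates of this 1 group, with no undifferentiated or treated group beside it. The labels gave both the same donor record and the strain C57BL/6J, whereas 3T3-L1 is generally described as Swiss-derived, and they did not say whether the cultures were run on separate days.

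NFI proteins are transcription factors that share a conserved DNA-binding domain at the amino terminus, bind DNA as homodimers or heterodimers, and recognise a palindrome made of a pair of TTGGC core sites. Each of the 4 genes has alternative start sites and spliced forms. Nfia is known as a factor of glial development and, together with PPARγ, of the brown-fat programme, and both Nfia and Nfib have been linked to the differentiation of 3T3-L1 cells into adipocytes. Nfib is known for its roles in lung and brain development, Nfic in tooth root and bone formation, and Nfix in fetal muscle and in blood progenitors. DNase I data show accessible DNA and not RNA, and give no strand.

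The label of the cells was set against the promoters of marker genes. A gene was counted as accessible when a peak of each replicate lay within 1000 bp of one of its annotated start sites, which held for 57.2% of all protein-coding genes. All 8 adipocyte markers (among them Pparg, Adipoq, Fabp4 and Plin1) met this, as did 5 of 6 preadipocyte or fibroblast markers, Dlk1 being the exception. Of the markers of other cells it held for 2 of 4 of neurons and glia, 1 of 3 of muscle, 1 of 3 of blood, and 0 of 2 each of endothelium, epithelium and liver. Replicate 2 had the longer lists, with 216556 peaks and 185029 hotspots, against 133695 peaks and 117685 hotspots in replicate 1. A peak is called shared when peaks of both replicates overlapped by at least 1 bp, and 117590 merged regions were of this kind. The value deposited with each peak runs up to 150 with a different middle in each list, so each value is also given as its percentile in its own list, the share of peaks with a lower value when tied peaks are split evenly above and below it.

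The sequences just upstream of a main accessible start site of each gene are shown first, since the start sites are described one by one. Sequences are from the RefSeq copy of GRCm38, are read 5′ to 3′ on the strand of the gene, and cover the part of the peak outside annotated exons. Capitals mark a match to any of these motifs on either strand: the NFI palindrome, TTGGC and GCCAA with any 5 bases between them and at most 1 mismatch among the fixed letters, the NFI core site TTGGCA, the C/EBP motif TTGCNNAA, the PPAR-RXR motif, which is AGGNCA, any base and another AGGNCA, the glucocorticoid receptor motif, which is GNACA and TGTNC with any 3 bases between them, the AP-1 motif TGANTCA, the EBF motif CCCNNGGG, and the CTCF motif, which is CCNNNAGG followed by NGGC. A palindrome that starts TTGGCA also counts as a core site, and a C/EBP match TTGCCAAA holds a core site on the opposite strand.
Nfia, upstream of the Nfia-208 start, chr4:97772256-97772425, plus strand: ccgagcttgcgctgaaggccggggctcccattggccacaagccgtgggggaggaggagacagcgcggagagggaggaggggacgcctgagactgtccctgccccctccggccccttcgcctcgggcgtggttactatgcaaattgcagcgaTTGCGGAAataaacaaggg
Nfib, upstream of the Nfib-208 start, chr4:82505780-82505865, minus strand: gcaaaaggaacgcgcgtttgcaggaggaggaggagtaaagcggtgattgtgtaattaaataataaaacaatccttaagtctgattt
Nfic, upstream of the Nfic-203 start, chr10:81427188-81427265, minus strand: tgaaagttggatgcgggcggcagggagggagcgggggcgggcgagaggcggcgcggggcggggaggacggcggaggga
Nfix, upstream of the Nfix-202 start, chr8:84800345-84800445, minus strand: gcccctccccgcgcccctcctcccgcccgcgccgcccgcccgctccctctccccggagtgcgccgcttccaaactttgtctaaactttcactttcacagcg
Of these 4 stretches, that of Nfia holds 1 searched motif, a C/EBP match close to its downstream end, and the other 3 hold none. G and C make up 78.2% of the stretch of Nfic and 70.3% of that of Nfix, 65.3% of that of Nfia and 39.5% of that of Nfib. Absence here says only that these letters do not occur in the stretch printed.

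All 4 genes had an accessible promoter in both replicates, and most of their start sites were open. GENCODE lists 35 transcripts for them, which begin at 31 distinct positions. A peak of both replicates lay within 1000 bp of 22 of these start sites, or 71.0%, against 48.6% of the 93423 distinct start sites of all protein-coding genes. The count was 6 of 8 for Nfia, 6 of 8 for Nfib, 5 of 7 for Nfic and 5 of 8 for Nfix. Many of these start sites lie close to each other and share a peak, so they are not independent observations. Among the 4502 protein-coding genes with at least 7 start sites, 88.8% had at least 1 accessible start site, and the median gene had 57.1% of its start sites accessible.

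Nfia had accessible start sites at 2 places 4.874 kb apart, at Nfia-208 and at the 5 start sites of Nfia-201 to Nfia-205. The upstream place was the stronger of the pair in both libraries. Its peak at chr4:97772256-97772425, centred at -393.5 bp from the Nfia-208 start, had a value of 121 in replicate 1 and 145 in replicate 2, at the 98.4 and 98.8 percentiles. Another peak at chr4:97773236-97773405, 586.5 bp inside the gene, had values of 111 in replicate 1 and 141 in replicate 2. Between them, chr4:97772776-97772925 was a peak of replicate 2 alone with a value of 114. The 5 start sites of Nfia-202, Nfia-203, Nfia-205, Nfia-201 and Nfia-204 fall between positions 97777608 and 97777834, and the strongest peak there, chr4:97777716-97777885, had values of 70 in replicate 1 and 122 in replicate 2. That peak lies in the first exon, in its untranslated part, and stood at the 76.5 percentile in replicate 1 and the 89.5 percentile in replicate 2. The start of E130114P18Rik, which is transcribed the opposite way and overlaps the first part of Nfia, lies at 97778078, so a peak there cannot be given to either gene from these data alone.

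The remaining Nfia start sites were weak or closed. Nfia-207, whose annotated 5′ end is incomplete, had no peak within 1000 bp, and the nearest lay 10374 bp away in replicate 1 and 3954 bp away in replicate 2. Nfia-206, a non-coding transcript that starts at 97911033, had peaks of replicate 2 alone, the higher with a value of 84. RefSeq also places an Nfia start at 97581943, which is 190.791 kb upstream of the GENCODE gene and outside the window, and neither replicate had a peak within 1000 bp of it.

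Nfib had its accessible start sites in a single dense place. The 6 start sites of 10 of its 12 transcripts fall between 82505308 and 82505779, and all 6 had peaks of both replicates within 1000 bp. The peaks chr4:82505716-82505865 and chr4:82506096-82506245 each had a value of 87 in replicate 1, and of 132 and 131 in replicate 2. Around them chr4:82505216-82505385 had values of 71 in replicate 1 and 118 in replicate 2, and chr4:82504856-82505025 had values of 57 and 113. The fifth of these peaks, chr4:82506376-82506565, had values of 76 in replicate 1 and 121 in replicate 2. A single hotspot covered most of the place, 2083 bp long in replicate 1 and 3540 bp in replicate 2, and in both replicates it was the widest hotspot of the Nfib window. Nfib-212, which starts 199.971 kb upstream at 82705750, had no peak within 1000 bp, although replicate 1 had one at 1086 bp. Nfib-211, a non-coding transcript that starts at 82499316, had none within 1000 bp either.

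Nfic had the least accessible main start site of the family. Nfic-201, Nfic-202 and Nfic-203 start between 81427114 and 81427187, and the peak over them, chr10:81427096-81427265, had a value of 50 in replicate 1 and 83 in replicate 2. These values stood at the 56.7 and 64.0 percentiles. The highest peak within 1000 bp of the Nfia-202, Nfib-201 and Nfix-204 starts stood at the 76.5, 87.1 and 97.2 percentiles in replicate 1. In replicate 2 those starts stood at 89.5, 93.9 and 98.8. Other start sites of Nfic were higher, at 76.5 in replicate 1 for Nfic-205 and 84.4 in replicate 2 for Nfic-204. Within 1000 bp of the start sites of Nfic-201, Nfic-202 and Nfic-203 replicate 1 had 1 hotspot, with a −log10 q of 4.34. Replicate 2 had 2 hotspots at that distance, and the higher reached the ceiling of 100. Stronger peaks lay on both sides, at chr10:81424896-81425045 in intron 1, with values of 92 in replicate 1 and 128 in replicate 2, and at chr10:81429696-81429865 upstream, with values of 85 in replicate 1 and 126 in replicate 2.

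The other Nfic start sites were mixed. Nfic-204 starts at 81431005 and had a peak of both replicates at 724.5 bp downstream, with values of 67 in replicate 1 and 112 in replicate 2. Nfic-205 has an incomplete 5′ end at 81407641 and had a peak of both replicates beside it, with values of 70 in replicate 1 and 105 in replicate 2. Nfic-207, the most upstream start at 81455635, had its nearest peak 5210 bp away in either replicate. Nfic-206, a non-coding transcript, had its nearest peak at 1242 bp in replicate 1 and 1282 bp in replicate 2.

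Nfix had accessible start sites at 2 places 25.655 kb apart, and here the downstream place was the stronger. Nfix-203 and Nfix-204 start at 84774369 and 84773396, and the peak between them, chr8:84773916-84774085, had values of 115 in replicate 1 and 145 in replicate 2. It stood at the 97.2 and 98.8 percentiles and lies in an untranslated exon. The upstream place serves Nfix-201, Nfix-202 and Nfix-205, and its peak over the Nfix-202 start, chr8:84800296-84800445, had values of 78 in replicate 1 and 120 in replicate 2. The 3 non-coding transcripts near the 3′ end, Nfix-206, Nfix-207 and Nfix-208, had no peak within 1000 bp, but all had peaks within 2500 bp in both replicates. Nfix-207 did have a hotspot within 1000 bp in both, 344 bp wide in replicate 1 and 388 bp in replicate 2. Each reached the −log10 q ceiling of 100. RefSeq places 4 starts in Nfix, and of these 84773410 and 84775828 had a peak of both replicates, whereas 84772875 and 84780082 had none, at the same distance of 1000 bp.

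**Figure D1:**
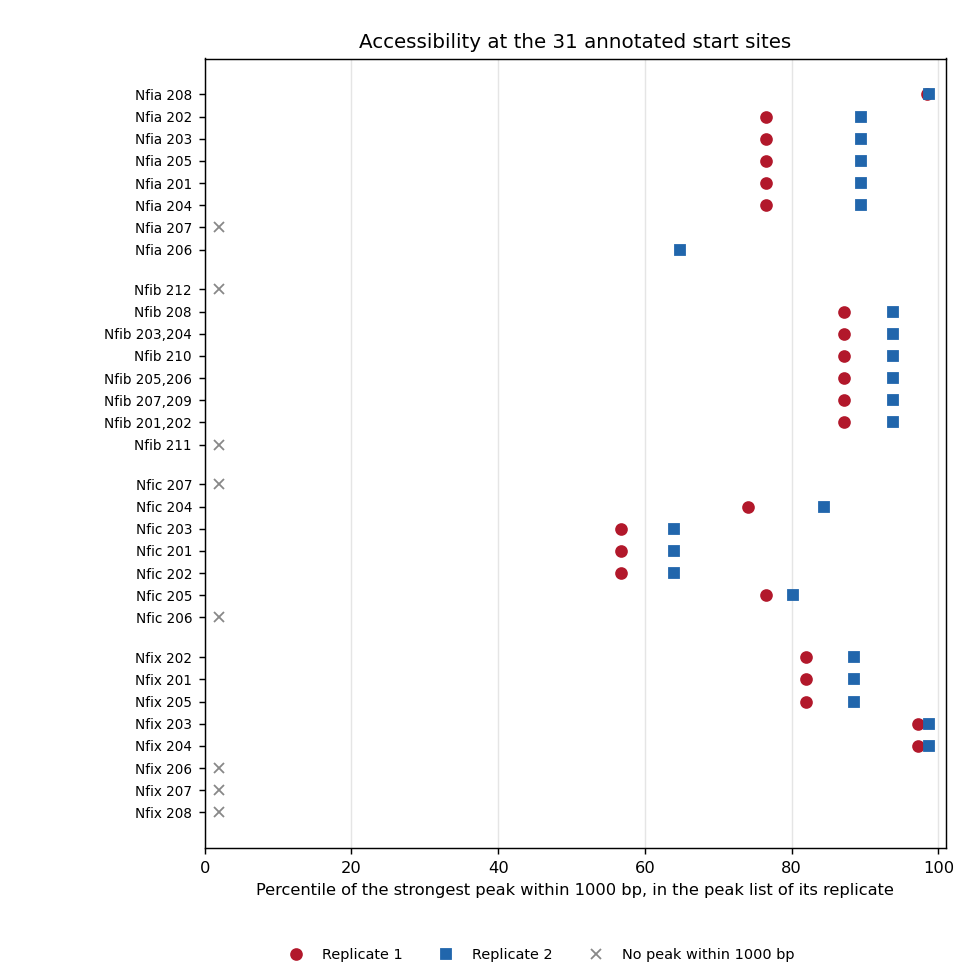
Percentile of the strongest peak within 1000 bp of each of the 31 annotated start sites, in the peak list of its own replicate (x axis, percent), with start sites in order of transcription down the page, circles for replicate 1, squares for replicate 2 and crosses where neither replicate had a peak. Nfia-208 and the Nfix-203 and Nfix-204 pair stand above the 97th percentile, and the Nfic-201 to Nfic-203 start sites stand lowest among those open in both replicates.

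The density of peaks over the windows put Nfix and Nfic near the top of all genes and Nfia and Nfib closer to the middle. The Nfix window of 300.469 kb held 65 peaks in replicate 1 and 93 in replicate 2, with a mean of 79.0 ± 19.8 (SD, n = 2), and 60 shared peaks. The Nfic window of 259.45 kb held 53 peaks in replicate 1 and 77 in replicate 2, 65 ± 16.97 (SD, n = 2), and 49 shared peaks. These made 2.00 shared peaks per 10 kb for Nfix and 1.89 for Nfic, against a median of 0.770 over all 21911 protein-coding gene windows. Nfix stood at the 97.3 percentile of those windows and Nfic at the 96.5 percentile.

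The windows of Nfia and Nfib are the longer ones because their gene bodies are long, 346.141 kb for Nfia and 415.578 kb for Nfib. Nfia, with a window of 546.141 kb, had 69 peaks in replicate 1 and 116 in replicate 2, 92.5 ± 33.2 (SD, n = 2), and 60 shared peaks. Nfib, with a window of 615.578 kb, had 60 peaks in replicate 1 and 91 in replicate 2, 75.5 ± 21.9 (SD, n = 2), and 55 shared peaks. Their densities of 1.10 and 0.893 shared peaks per 10 kb stood at the 71.3 and 59.0 percentiles of all windows. In order of shared density the family therefore ran Nfix, Nfic, Nfia, Nfib, and the same order was found with the peaks of replicate 1 alone and with those of replicate 2 alone. The Nfix and Nfic densities differed by less than the distance between replicates.

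Hotspot coverage ranked the genes the same way. Hotspots covered 9.11% of the Nfix window in replicate 1 and 13.6% in replicate 2, and 8.11% and 12.8% of the Nfic window. Coverage was 3.98% in replicate 1 and 7.91% in replicate 2 for Nfia, and 3.45% and 5.24% for Nfib. Over all protein-coding gene windows the medians were 3.07% in replicate 1 and 4.98% in replicate 2, so all 4 genes lay above the median in both libraries.

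The gap between the pairs of genes narrowed when peaks at start sites were left out. The Nfic window also holds 17 other protein-coding genes, 13 of them with an accessible promoter, and the Nfix window 13, of which 11 had one. The Nfia and Nfib windows each hold 1 other protein-coding gene, E130114P18Rik and Zdhhc21, and the median over all windows was 4. Counting only shared peaks centred more than 1000 bp from every coding start site, a choice made after the values were seen, the densities were 1.12 per 10 kb for Nfic, 1.10 for Nfix, 1.01 for Nfia and 0.812 for Nfib, against a median of 0.507. On that scale Nfia stood at the 90.6 percentile, Nfib at 79.4, Nfic at 94.2 and Nfix at 93.7.

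**Figure D2:**
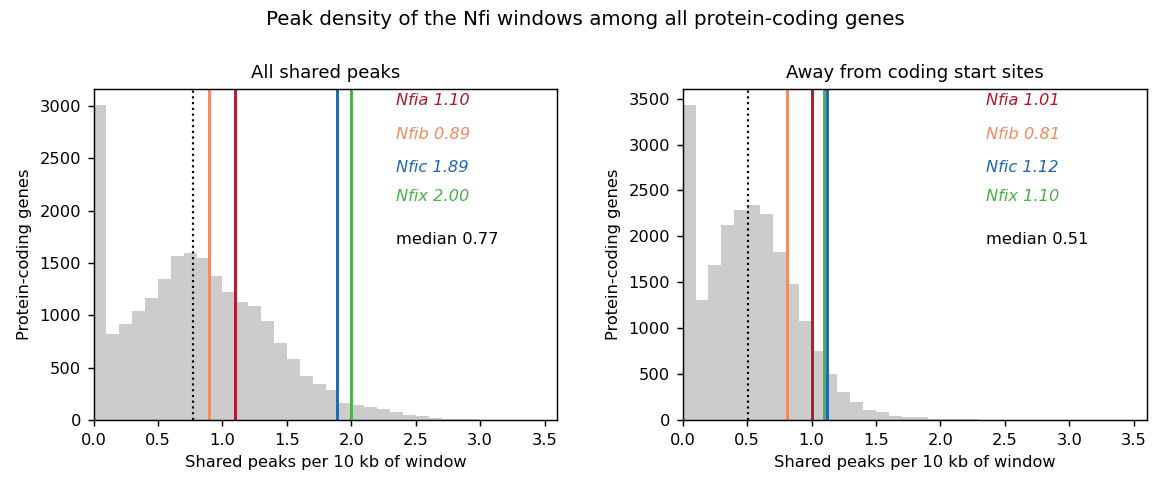
Histograms of shared peaks per 10 kb of window over all 21911 protein-coding genes (y axis, number of genes), with a coloured line for each family member and a dotted line at the median. On the left, with all shared peaks, Nfix at 2.00 and Nfic at 1.89 lie in the right tail and Nfia and Nfib closer to the median of 0.770, whereas on the right, away from coding start sites, the 4 lines lie between 0.812 and 1.12 against a median of 0.507.

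The peaks of Nfia and Nfib lay mostly in their own introns, and those of Nfic and Nfix mostly outside the gene. The gene body makes up less of the window for Nfic and Nfix, at 59.45 of 259.45 kb and 100.469 of 300.469 kb. For Nfia it is 346.141 of 546.141 kb and for Nfib 415.578 of 615.578 kb. In all 4 genes shared peaks were denser in the body than over the window. They numbered 1.27, 1.08, 2.86 and 2.39 per 10 kb of body for Nfia, Nfib, Nfic and Nfix. Over the windows these densities were 1.10, 0.893, 1.89 and 2.00. Of the shared peaks, 41 of 60 in the Nfia window (68.3%) and 39 of 55 in the Nfib window (70.9%) were in an intron of the gene itself. For Nfic the count was 14 of 49 (28.6%) and for Nfix 15 of 60 (25.0%). Some of the Nfib peaks so counted lay in the 199.971 kb upstream of its accessible start sites, which only Nfib-212 spans. The Nfib-212 start itself had no peak within 1000 bp. Introns 1, 2, 3, 6, 10 and 11 of Nfib-201 held 2, 12, 1, 3, 1 and 3 shared peaks, and its other introns none. Start sites of other protein-coding genes held 17 shared peaks in the Nfic window and 21 in the Nfix window, against 1 for Nfia and none for Nfib. Peaks within 1000 bp of a start site of the gene itself were counted there first. The Nfia peak chr4:97777716-97777885 was so counted, although it was centred 247.5 bp from an E130114P18Rik start. Over all 4 windows 18 of 224 shared peaks (8.04%) were at a start site of the family member itself.

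**Figure D3:**
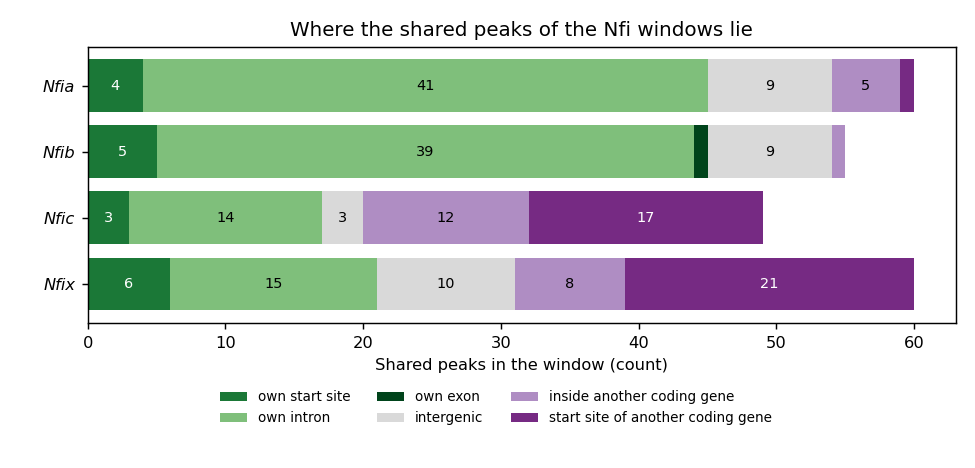
Number of shared peaks in each window (x axis), split by where the centre of the peak lies, with one bar per gene. Own introns hold 41 peaks for Nfia and 39 for Nfib, where they include introns upstream of its accessible start sites. Start sites of other coding genes hold 17 for Nfic and 21 for Nfix. A peak near start sites of both kinds is counted with the gene itself.

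Within the Nfia gene the accessible sites were unevenly spread over the introns. Numbered from Nfia-202, whose start is the one used for distances below, intron 10 is 29.401 kb long and held 11 shared peaks, or 3.74 per 10 kb. The short intron 1, of 5.087 kb, held 3 and was denser, at 5.90 per 10 kb. Intron 4, of 13.746 kb, also held 3, or 2.18 per 10 kb. Intron 2, the longest at 172.76 kb, held 13, or 0.752 per 10 kb. Introns 5, 6 and 8 held none. The strongest intronic peak of Nfia lay in intron 10, at chr4:98104236-98104405, 326.7 kb downstream of the Nfia-202 start, with values of 117 in replicate 1 and 142 in replicate 2. Its percentiles were 97.7 in replicate 1 and 97.8 in replicate 2. It lies in the widest hotspot of the Nfia window in replicate 1, which measured 1356 bp. The next strongest distal peaks were chr4:97924016-97924185 in intron 2, with values of 102 in replicate 1 and 134 in replicate 2, and chr4:98109156-98109325 in intron 10, with values of 97 and 134.

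The largest runs of Nfia peaks lay around its start sites and in intron 10. Peaks were joined into a run where less than 10 kb lay between them. The 60 shared peaks formed 16 runs, single peaks included, and the 2 largest held 11 each. The run around the start sites covered 20.39 kb, from -11.8 to 8.4 kb around the Nfia-202 start, and the run in intron 10, chr4:98090676-98109325, covered 18.65 kb. The longest stretch without a shared peak was 54.55 kb upstream of the gene, at chr4:97691386-97745935, which held 0 peaks of replicate 1 and 3 of replicate 2.

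Nfib peaks were spread over the gene on either side of its main start sites. Its largest run held 10 shared peaks within 7.85 kb, chr4:82503376-82511225, which spans the 6 accessible start sites. Downstream, intron 2 of Nfib-201 (114.576 kb) held 12 shared peaks, and the strongest distal peak, chr4:82447336-82447525, lies there. That peak had values of 100 in replicate 1 and 135 in replicate 2, at the 92.6 and 95.1 percentiles. The next ones lie upstream of the main start sites, inside the long Nfib-212 transcript, at chr4:82531116-82531285 with values of 83 in replicate 1 and 129 in replicate 2, and at chr4:82542216-82542365 with values of 86 and 120. Nfib had the fewest strong peaks of the family, with 1 shared peak above the 90th percentile of both lists.

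The Nfic window had the longest run of peaks in the family. It joined 33 of its 49 shared peaks over 108.77 kb, chr10:81341656-81450425, across Nfic and its gene-dense downstream side. Its 3 strongest distal peaks were in the Mfsd12 gene at chr10:81358936-81359125, with values of 105 in replicate 1 and 135 in replicate 2, in Pip5k1c at chr10:81318656-81318845, with values of 96 and 129, and in intron 1 of Nfic itself, the peak at chr10:81424896-81425045 given above. The peaks in Mfsd12 and Pip5k1c were centred 1478.5 bp from an Mfsd12 start and 1908.5 bp from a Pip5k1c start. The widest hotspot of this window, 3577 bp in replicate 1 and 3554 bp in replicate 2, lies across the Cactin start and not in Nfic. The strongest peak found in 1 replicate alone was also there, chr10:81320756-81320905, with a value of 147 in replicate 2.

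The Nfix window held the strongest sites of the family, most of them outside Nfix itself. Its shared peaks had median percentiles of 78.3 in replicate 1 and 86.2 in replicate 2. The medians were 62.7 and 80.2 for Nfic, 57.9 and 73.4 for Nfib, and 52.7 and 70.1 for Nfia, beside 54.1 and 71.2 over all shared peaks. Of the 60 shared peaks of Nfix 14 stood above the 90th percentile of both lists, against 8 for Nfic, 6 for Nfia and 1 for Nfib. Over the family this made 29 of 224 (12.9%), beside 10.8% of all shared peaks. For Nfix 12 of the 14 lay outside the gene and its start sites, for Nfic 8 of 8, and for Nfia 0 of 6. The 3 strongest distal peaks of the Nfix window lie around Ier2, an immediate early gene, at chr8:84664036-84664225 with values of 124 in replicate 1 and 147 in replicate 2, at chr8:84661636-84661805 with values of 112 and 137, and at chr8:84664956-84665145 with values of 105 and 139. Distal means only centred more than 1000 bp from a start site, and these were centred 1278.5, 1131.5 and 2198.5 bp from an Ier2 start. Inside Nfix the strongest intronic peak, picked out after its values were seen, was chr8:84782776-84782965, which lies between the upstream and downstream start sites and had values of 107 in replicate 1 and 135 in replicate 2. The longest stretch without a shared peak, 28.07 kb, lay directly downstream of the peak at the stronger start sites, mostly in intron 2 of Nfix-204, and held 1 peak of replicate 2.

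The strongest peak in an intron of each gene itself is shown here. In the Nfic and Nfix windows stronger distal peaks lay in or beside neighbouring genes, as given above.
Nfia, intron 10, chr4:98104236-98104405, plus strand: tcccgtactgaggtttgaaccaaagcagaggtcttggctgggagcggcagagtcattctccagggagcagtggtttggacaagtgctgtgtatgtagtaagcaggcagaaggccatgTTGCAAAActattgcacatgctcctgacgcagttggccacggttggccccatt
Nfib, intron 2, chr4:82447336-82447525, minus strand: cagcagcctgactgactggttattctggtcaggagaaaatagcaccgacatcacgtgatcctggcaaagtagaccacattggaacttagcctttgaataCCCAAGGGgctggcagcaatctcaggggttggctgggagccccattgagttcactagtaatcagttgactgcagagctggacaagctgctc
Nfic, intron 1, chr10:81424896-81425045, minus strand: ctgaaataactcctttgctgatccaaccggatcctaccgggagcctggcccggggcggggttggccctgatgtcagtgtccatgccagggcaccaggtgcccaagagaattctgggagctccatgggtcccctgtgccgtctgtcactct
Nfix, intron before the Nfix-203 start, chr8:84782776-84782965, minus strand: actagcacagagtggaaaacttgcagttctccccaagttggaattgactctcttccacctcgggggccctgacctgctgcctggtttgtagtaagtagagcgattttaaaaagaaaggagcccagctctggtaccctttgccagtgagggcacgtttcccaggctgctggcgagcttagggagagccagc
The Nfia peak holds 1 C/EBP match, the Nfib peak holds 1 EBF match, and the Nfic and Nfix peaks hold none of the motifs searched. C/EBP and EBF proteins are known factors of adipocyte differentiation, and a match to their motif is only a match of letters.

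**Figure D4:**
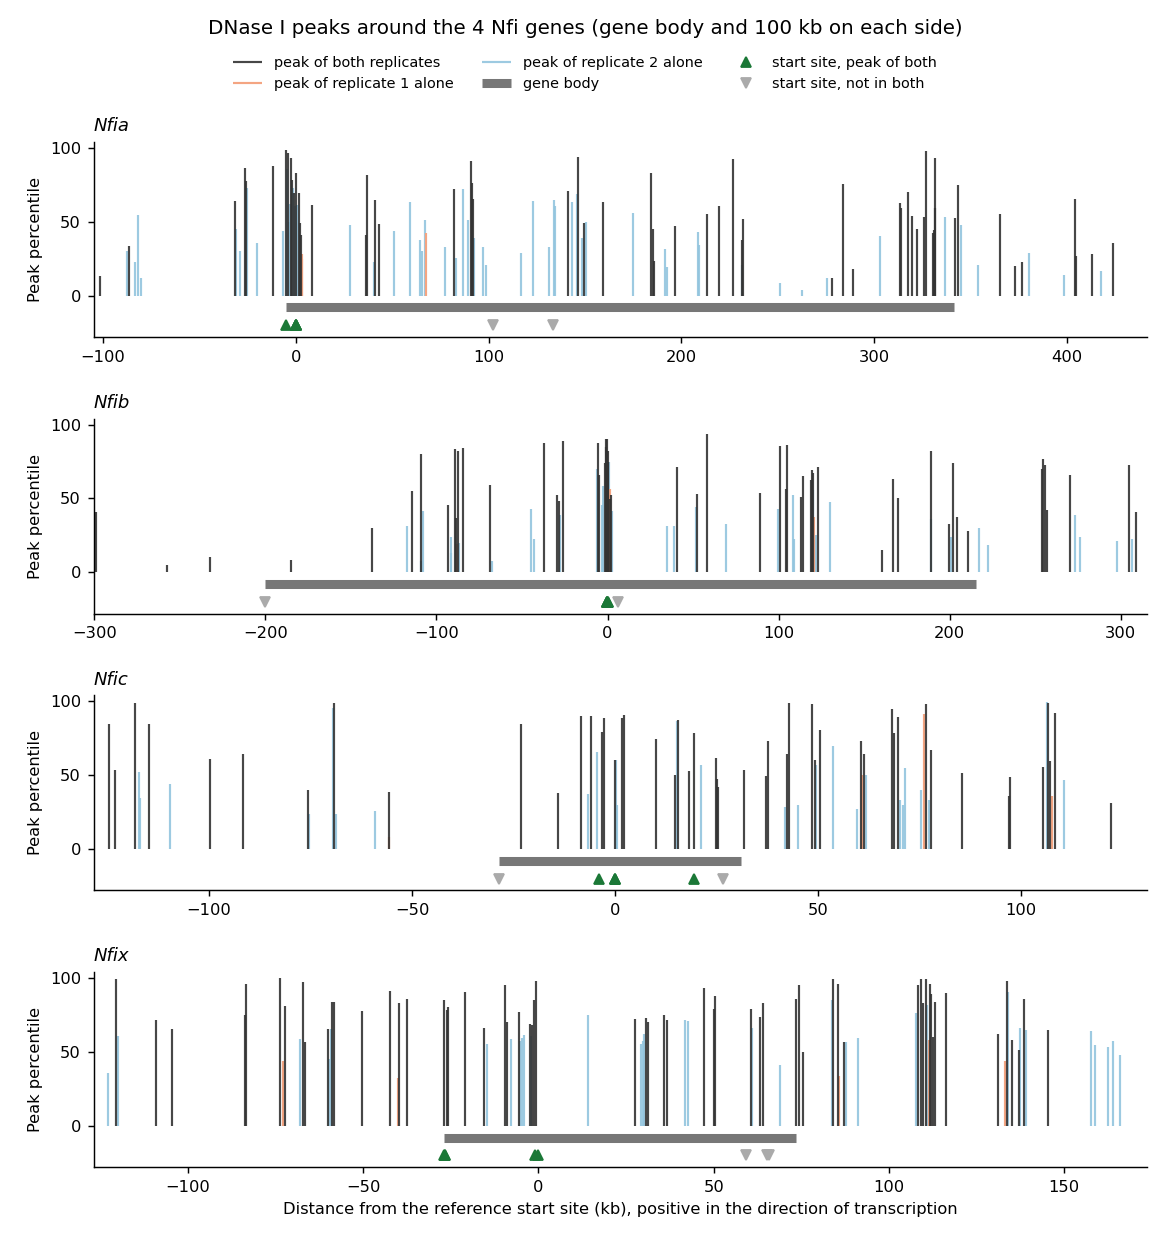
Peaks of the 4 windows by distance from the reference start site of each gene (x axis, kb, positive in the direction of transcription) and by their percentile, averaged over replicates for shared peaks (y axis), with the gene body as a grey bar and start sites as triangles. The tallest lines of Nfia stand at its start sites and at 326.7 kb, those of Nfib around its start sites and at 57.9 kb, and those of Nfix around the neighbouring genes.

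The replicates ranked the family's shared peaks alike. Of the 247 replicate 1 peaks 91.9% overlapped a replicate 2 peak, and of the 377 replicate 2 peaks 59.7% overlapped a replicate 1 peak. Over all peaks the shares were 90.3% and 55.5%. Spearman's rank correlation between the replicates' values was 0.947 over the 224 shared peaks of the family and 0.944 over all shared peaks, given as descriptions, since peaks within a window and the libraries of 1 cell line are not independent. Regions of replicate 2 alone numbered 54 for Nfia, 33 for Nfib, 26 for Nfic and 32 for Nfix, and those of replicate 1 alone 4, 4, 4 and 5. The regions of replicate 2 alone stood lower in that list than the shared ones of the same gene, with median percentiles of 39.4 for Nfia, 31.5 for Nfib, 42.1 for Nfic and 60.0 for Nfix.

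The NFI palindrome was found in few of the family's shared peaks. A match with at most 1 mismatch was found in the central 150 bp of 1 of the 224 shared peaks, or 0.446% with an exact binomial 95% interval of 0.0113% to 2.46%, beside 2.31% of all shared peaks. Among the 377 peaks of replicate 2 it was found in 8, or 2.12%. The core site TTGGCA was found in 38 of the 224 shared peaks, or 16.96% (12.3% to 22.5%), beside 19.3% of all shared peaks. These intervals cover counting error over peaks only, and peaks of a window are neighbours. The genome share lay within the interval for both forms of the motif.

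In regions of replicate 2 alone, which were the weaker ones, the palindrome was found in 7 of 145 in the 4 windows, or 4.83% (1.96% to 9.69%). This stood beside 1.94% of the 91754 such regions over the genome, just under the lower end of the interval. None of the 17 regions of replicate 1 alone held it.

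The palindrome with no mismatch occurred in 3 accessible regions of the 4 windows, and these are printed because they are the nearest match to the family's own binding sequence. With them stand both shared peaks that held 4 core sites.
Nfia, intron 2, chr4:97869156-97869305, plus strand: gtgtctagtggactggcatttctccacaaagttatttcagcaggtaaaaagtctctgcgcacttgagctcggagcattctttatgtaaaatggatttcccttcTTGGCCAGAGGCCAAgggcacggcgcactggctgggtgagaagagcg
Nfia, intron 2, chr4:97876016-97876165, plus strand: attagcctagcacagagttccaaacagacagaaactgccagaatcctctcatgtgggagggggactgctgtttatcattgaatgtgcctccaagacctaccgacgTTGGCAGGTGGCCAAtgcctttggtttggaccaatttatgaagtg
Nfic window, chr10:81382056-81382205, minus strand: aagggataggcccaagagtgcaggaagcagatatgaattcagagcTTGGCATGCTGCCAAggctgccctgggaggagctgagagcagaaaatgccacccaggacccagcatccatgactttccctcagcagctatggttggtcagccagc
Nfib, intron 2, chr4:82404416-82404585, minus strand: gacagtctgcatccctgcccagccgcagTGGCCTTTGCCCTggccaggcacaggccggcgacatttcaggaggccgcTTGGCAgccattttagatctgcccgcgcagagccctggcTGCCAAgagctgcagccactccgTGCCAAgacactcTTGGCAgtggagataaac
Nfia, intron 2, chr4:97926936-97927105, plus strand: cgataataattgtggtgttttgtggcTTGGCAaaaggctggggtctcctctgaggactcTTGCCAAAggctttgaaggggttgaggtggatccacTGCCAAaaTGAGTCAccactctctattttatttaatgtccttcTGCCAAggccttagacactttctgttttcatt
The exact palindrome TTGGCCAGAGGCCAA, at chr4:97869259-97869273 in intron 2 of Nfia, lay in the only shared peak of the 3, with values of 65 in replicate 1 and 105 in replicate 2. In replicate 2 that peak fell in the widest hotspot of the Nfia window, which measured 2025 bp. The second, TTGGCAGGTGGCCAA at chr4:97876121-97876135, lay 6.862 kb further into the same intron in a peak of replicate 2 alone with a value of 48. The third, printed on the minus strand, was TTGGCAGCATGCCAA on the plus strand at chr10:81382146-81382160, in a peak of replicate 2 alone with a value of 54. The exact palindrome was thus found in 1 of the 224 shared peaks of the family, or 0.446% (0.0113% to 2.46%), beside 0.091% of all shared peaks. Among regions of replicate 2 alone it was found in 2 of 145, or 1.38% (0.167% to 4.89%), beside 0.108% of such regions over the genome.

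The peak chr4:82404416-82404585 in intron 2 of Nfib held 4 core sites and the only PPAR-RXR match among the family's shared peaks. PPARγ with its partner RXR is the central nuclear receptor of adipocyte differentiation. The peak had values of 87 in replicate 1 and 111 in replicate 2, and the match AGGGCAAAGGCCA lies at chr4:82404545-82404557 on the plus strand. The other peak with 4 core sites, chr4:97926936-97927105 in intron 2 of Nfia, also held a C/EBP and an AP-1 match and had lower values, 38 in replicate 1 and 78 in replicate 2.

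Some of the other motifs had shares whose interval did not include that of all shared peaks. AP-1, the motif of Fos and Jun proteins, was found in 10 of the family's 224 shared peaks, or 4.46% (2.16% to 8.06%), beside 8.94% of all shared peaks. In the regions of replicate 2 alone it was found in 14 of 145, or 9.66% (5.38% to 15.7%), beside 8.76% of such regions over the genome. Among the shared peaks it was found in 5 of Nfib, 3 of Nfic and 1 each of Nfia and Nfix. CTCF, a factor found at boundaries of chromatin loops, was matched in 9 of the 49 shared peaks of the Nfic window, or 18.4% (8.76% to 32.0%), beside 5.39% of all shared peaks. Over the 4 windows together the CTCF share was 6.25% (3.46% to 10.3%). In the Nfic window C/EBP was found in 1 of 49, or 2.04% (0.0517% to 10.9%), beside 11.9%. The intervals are not adjusted for the 8 motifs and 4 windows compared.

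Over the 4 windows together, the intervals of the motifs of other adipocyte factors included the share over the genome. C/EBP was found in 11.6% of the family's shared peaks (7.72% to 16.5%), beside 11.9% of all. In 4 of these 26 peaks it overlapped an NFI core site. EBF was found in 8.48% (5.18% to 12.9%), beside 6.12%, and PPAR-RXR in 0.446% (0.0113% to 2.46%), beside 0.543%. The glucocorticoid receptor motif was found in none of the 224, with an upper limit of 1.63%, beside 0.44% of all. The windows differed in base composition, whose part in these shares was not tested. The median GC content of the central 150 bp was 46.7% for Nfia, 48.0% for Nfib, 60.0% for Nfic and 56.0% for Nfix, beside 49.3% for all shared peaks.

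**Figure D5:**
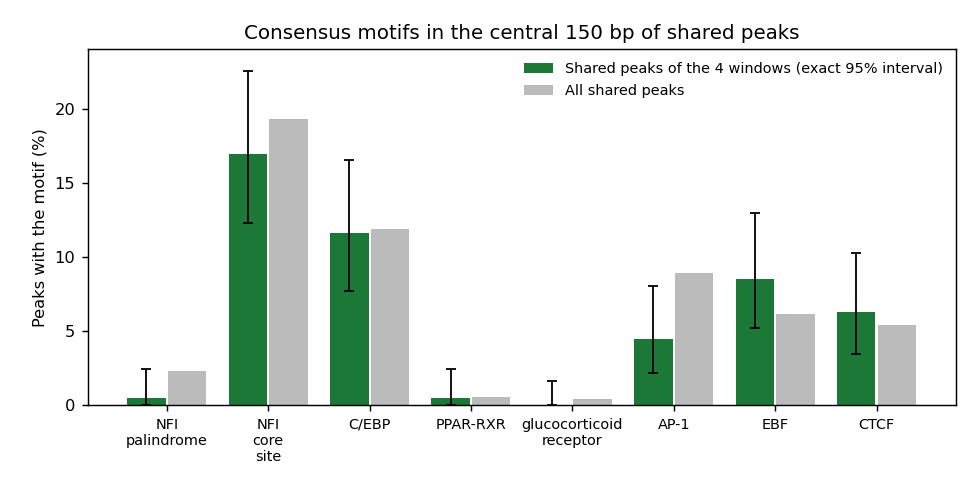
Share of shared peaks with each consensus motif in their central 150 bp (y axis, percent), for the 224 peaks of the 4 windows with exact 95% intervals and for all shared peaks. The AP-1 interval of 2.16% to 8.06% lies below the bar of all shared peaks at 8.94%, and the intervals of the other motifs contain it.

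Genes that work beside NFI factors in adipocytes were accessible too. All 14 of the listed factors of adipocyte differentiation (among them Pparg, Cebpa, Cebpb, Ebf2, Prdm16 and Nr3c1) had an accessible promoter. The share over all protein-coding genes was 57.2%. All 4 Nfi genes, each with at least 7 start sites, had one too. Among protein-coding genes with that many start sites, 88.8% had an accessible promoter. Of 12 brown-fat and general adipocyte genes 8 had one, and the 4 without were Cidea, Dio2, Ppara and Ucp1. Dio2 and Ppara had a promoter peak in replicate 2 alone, and Cidea and Ucp1 in neither. Ucp1 encodes the uncoupling protein of brown fat. On the density scale the windows of the 14 factors ran from the 18.2 percentile for Klf5 to the 99.2 percentile for Cebpb, with a median of 77.8. Nfix, Nfic, Nfia and Nfib, at 97.3, 96.5, 71.3 and 59.0, all lay within that range. The range spans most of the percentile scale, so lying within it shows no likeness to the 14 factors.

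The genes whose windows were most like each member were found from 4 percentiles, those of peak density in each replicate, of shared density and of hotspot coverage. For Nfia they were Rab1a, Mmp14 and P4ha1, with root mean square differences of 0.711, 0.740 and 0.919 percentile points. For Nfib they were Map3k20, Agps and Lrrc31, with 0.5001, 0.948 and 1.02. For Nfic they were Rhebl1, Psmc3ip and Slc37a4, with 0.371, 0.407 and 0.463, and for Nfix 1700029H14Rik, Lmbr1l and Kif7, with 0.183, 0.211 and 0.239. The measure rests on 2 libraries and compares amounts of accessible sites, not the sites themselves.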

How the data were processed

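Peak and hotspot lists of the 2 libraries were used as deposited. In the deposited peak lists each 150 bp peak carries a signal value, a whole number from 1 to 150, which no source used here explains. For hotspots the deposited measure is the −log10 of a q value, capped at 100, a ceiling that 46.7% of hotspots reached in replicate 1 and 48.5% in replicate 2. Peak caller, aligner and depth: not given in the sources used here. Values therefore have no interval for depth, and 2 libraries limit every SD. Per the labels the assembly was mm10.

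Duplicate lines (20 in replicate 1 and 33 in replicate 2) and regions off the assembled chromosomes were left out. Peaks of both libraries were merged at an overlap of at least 1 bp. A percentile is a mid-rank percentile. Windows, start sites and introns came from GENCODE M21. Motifs were searched on both strands of the central 150 bp of the GRCm38 sequence. Shares have exact binomial (Clopper-Pearson) 95% intervals over peaks. With 1 group no test between samples was possible, and no p-value is given. Named peaks were, for each gene, those at start sites, the 3 distal shared peaks with the highest mean percentile, and the strongest peak of 1 replicate alone. Distal peaks were centred more than 1000 bp from the start sites of the gene and of other coding genes. The members, lists and motifs were chosen with earlier results of these data known. The counting was tested on simulated data. Python 3.11.15, numpy 2.4.6, pandas 2.3.3 and scipy 1.17.1 were used.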

Additional observations from a re-analysis of the deposited data

How the results depend on the processing

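Requiring an overlap of 50% of the shorter peak left every count of shared peaks within 1.5-fold of its main value. Every density percentile moved by less than the SD between its 2 single-replicate values. With the stronger 50% of each list the shared peaks numbered 31 for Nfia, 33 for Nfib and 31 for Nfic, and the density percentiles were 62.8, 60.7 and 92.6. With lists of equal length the percentiles were 67.7 for Nfia and 60.5 for Nfib. Over gene bodies with no flank Nfic had 17 shared peaks at the 90.1 percentile, Nfix 24 at 87.0, and Nfib stood at 66.3. With a flank of 50 kb Nfia stood at 74.5 and Nfib at 61.7. Away from coding start sites, an alternative chosen after seeing the data, the percentiles were 90.6 for Nfia, 79.4 for Nfib, 94.2 for Nfic and 93.7 for Nfix. Leaving out each replicate in turn gave 69 to 116 peaks for Nfia, 60 to 91 for Nfib, 53 to 77 for Nfic and 65 to 93 for Nfix, with percentiles of 72.5 to 76.9, 54.9 to 56.5, 92.4 to 95.3 and 93.8 to 96.5. Start sites of protein-coding transcripts alone left 3 accessible ones for Nfib. Fewer of its start sites were then counted, and of these only that of Nfib-212 was not accessible. A window of 2500 bp made 8 accessible start sites for Nfix. The palindrome share of 0.446% was 16.96% for the core site and 0.405% to 2.12% when each replicate was left out in turn, the higher share being that of replicate 2. The cause of these shifts was not tested, apart from those built into an alternative that counts fewer peaks, fewer start sites or shorter motifs. No paired analysis was possible because the study has 1 group. Depth is unknown, so peaks of replicate 2 alone cannot be told apart from sites that replicate 1 was too shallow to show.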
